A study of Mus musculus with 6 samples.

Results

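Tight junctions are belts of cell contacts that seal the space between neighbouring epithelial cells. Their strands are built by the claudins, a family of proteins that span the membrane 4 times, together with occludin, and the strands are held to the cell cortex by the zonula occludens (ZO) scaffold proteins, encoded by the Tjp genes. In the epidermis the sealing junctions lie in the granular layer, below the cornified layer, while some claudins, claudin 1 above all, are also made in the layers beneath, including the basal layer. The genes described here are 9 of the 24354 in the deposited table, found by symbol: the claudins Cldn1, Cldn4, Cldn6, Cldn7 and Cldn12, the scaffold genes Tjp1 and Tjp3, occludin (Ocln) and F11r, which encodes junctional adhesion molecule A.

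Their mRNA was measured by RNA sequencing in epidermal cells sorted for high α6 integrin, a surface receptor of basal keratinocytes, from the skin of C57BL6 mouse embryos at E18.5, shortly before birth. The 3 control libraries came from wild-type (WT) epidermis, and the 3 mutant libraries carried Pik3caH1047R/H1047R, both copies of the gene for the catalytic subunit p110α of phosphoinositide 3-kinase (PI3K) with a variant that activates the enzyme. The labels do not say what drives the mutant allele in the epidermis or how many animals stand behind a library. The comparison of the groups addresses how active PI3K changes gene expression in basal cells before birth.

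The basal keratins Krt5 (12028 FPKM in WT, 11977 in mutant libraries) and Krt14 (10194 and 8453 FPKM) were abundant in both groups, as the label of the sorted cells has it. FPKM counts fragments per kilobase of a transcript, relative to the size of the library, so that levels of genes can be compared per length. Summed over all genes, the WT libraries held 656761 to 767148 FPKM and the mutant libraries 538627 to 651769 FPKM, and 11242 to 11351 genes per library reached 1 FPKM. Read totals are not known; the most frequent ratio of low values between libraries put their depths within 0.983 to 1.24 times that of WT replicate 1. The Pik3ca level was 9.04 ± 0.415 FPKM in the WT group and 6.65 ± 0.602 FPKM in the mutant group (SD, n = 3 each), which cannot show which allele was transcribed. Itga6, the gene of the integrin used in the sort, was at 163 ± 7.55 and 123 ± 2.13 FPKM. Its deposited locus (chromosome 2, 71389260 to 71903858) reaches beyond the annotated gene (71745616 to 71858416), so other reads may be included.

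Mutant libraries held less mRNA of the claudins Cldn1, Cldn4 and Cldn12 and of F11r, and more mRNA of Tjp3, than WT libraries. Cldn1 and Cldn4, the claudins with the highest levels in both groups, were 2.57 and 2.75 times lower by the ratio of mean FPKM, and Tjp3 was 2.16 times higher. No change passed the test for Tjp1, Ocln and Cldn7, and Cldn6 was too low to be tested. In all, 8 of the 9 genes reached the minimum mean of 1 FPKM, and of these 5 passed limma's test at a Benjamini-Hochberg adjusted p under 0.05, 4 lower and 1 higher, against 46.0% of all 11385 genes tested (22.8% lower and 23.2% higher). The groups did not overlap for 6 of the 8, against 56.0% of all genes tested. Because no label ties the samples of a group to different animals, each p-value reflects only the spread among these samples, which may be technical. In sorted bulk cells, fewer cells that make an mRNA and less of it per cell cannot be told apart.

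**Figure D1:**
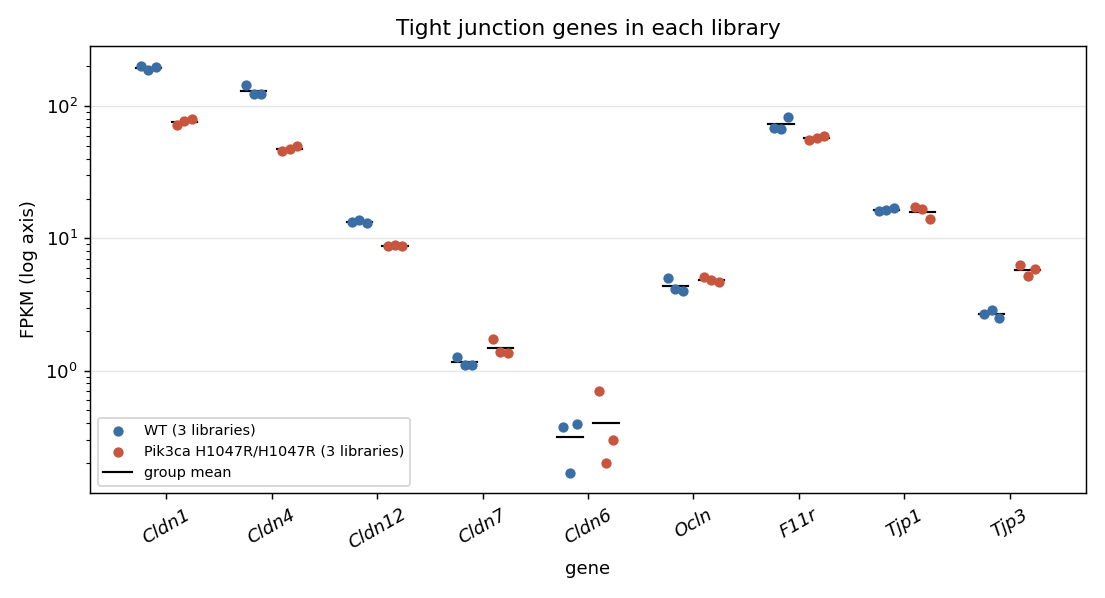
FPKM on a log axis (y) of the 9 genes (x) in each of the 3 WT libraries (blue) and 3 mutant libraries (red); black bars are group means. The mutant points of Cldn1, Cldn4, Cldn12 and F11r all lie below the WT points and those of Tjp3 and Cldn7 all lie above, while the points of Cldn6, Ocln and Tjp1 overlap.

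The directions depend in part on how the libraries are scaled to each other. When each library was rescaled to one common FPKM total, the median over all genes tested rose on the log2 scale from 0.01 to 0.30, 47.2% of all genes tested were called higher and 7.40% lower, and the 8 genes gave 5 calls against 54.6% of all genes, 3 higher (Tjp3, Ocln and Cldn7) and 2 lower (Cldn1 and Cldn4). Quantile normalization called 1 of them higher (Tjp3) and 3 lower (Cldn1, Cldn4 and Cldn12), against 26.5% and 21.2% of all genes, 47.6% in both directions. The calls of Cldn1, Cldn4 and Tjp3 were thus made under each scaling tried. Relative to the median gene, Cldn1 stood at -1.36 as deposited and at -1.32 after rescaling to one total. Cldn4 stood at -1.44 and -1.41, and Tjp3 at 0.87 and 0.84. Rescaling multiplies all values of a library by the same factor, so these pairs were bound to stay close. Those of Cldn12 did too (-0.56 and -0.55), though its call ended. Under quantile normalization Cldn1 stood at -1.16, Cldn4 at -1.32 and Tjp3 at 0.81 relative to the median gene.

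**Figure D2:**
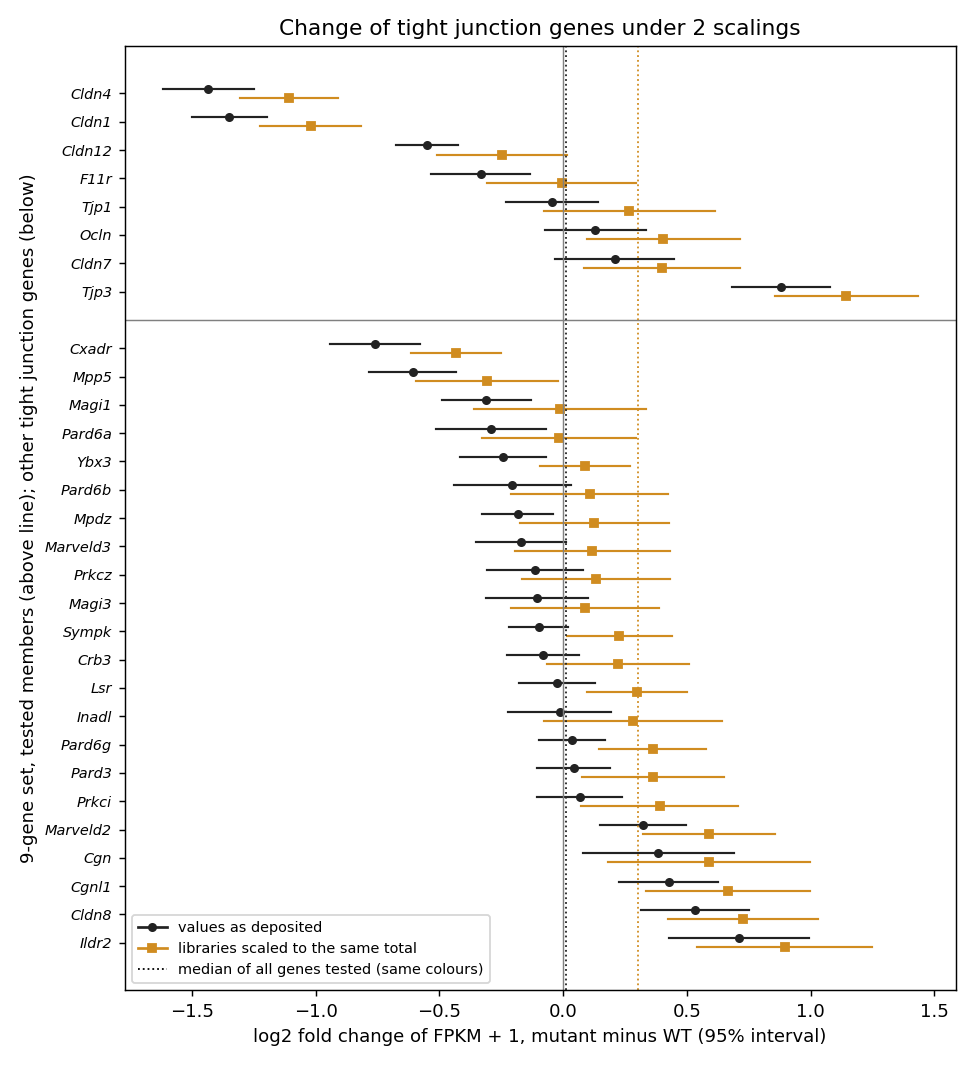
Log2 fold change of FPKM + 1, mutant minus WT (x), with its 95% interval, for the 8 tested genes of the set (above the line) and 22 other tight junction genes (below it), with the values as deposited (black circles) and with libraries brought to one total (orange squares); dotted lines mark the median of all genes tested, and Cldn8 and Ildr2 reached the minimum for the test through the mutant group alone. Scaling moves every point to the right; Cldn1 and Cldn4 stay left of 0 and Tjp3 stays right of it under both.

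The first stretch of the genes that moved most is shown for reference, because Cldn1 and Cldn4 fell to a similar degree while Tjp3 rose. The sequences are RefSeq promoter windows of GRCm38.p6, from 250 bases before to 50 bases after the start site at the 5′ end of the deposited locus, all on the minus strand: chr16:26371790-26372089 for Cldn1, chr5:134946885-134947184 for Cldn4 and chr10:81291532-81291831 for Tjp3. Capitals mark every match, on either strand, to 7 short motifs.
Cldn1: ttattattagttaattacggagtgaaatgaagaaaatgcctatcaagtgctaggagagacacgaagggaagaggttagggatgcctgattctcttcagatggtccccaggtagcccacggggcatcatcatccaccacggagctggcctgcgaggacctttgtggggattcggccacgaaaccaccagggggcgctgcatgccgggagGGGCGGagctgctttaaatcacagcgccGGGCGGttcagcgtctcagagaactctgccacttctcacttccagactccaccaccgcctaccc
Cldn4: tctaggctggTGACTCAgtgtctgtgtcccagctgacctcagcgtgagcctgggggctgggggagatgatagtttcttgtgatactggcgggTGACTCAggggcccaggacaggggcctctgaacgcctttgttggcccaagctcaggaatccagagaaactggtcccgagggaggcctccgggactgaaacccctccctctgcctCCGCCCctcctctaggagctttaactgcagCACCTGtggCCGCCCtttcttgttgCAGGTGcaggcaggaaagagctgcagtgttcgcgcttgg
Tjp3: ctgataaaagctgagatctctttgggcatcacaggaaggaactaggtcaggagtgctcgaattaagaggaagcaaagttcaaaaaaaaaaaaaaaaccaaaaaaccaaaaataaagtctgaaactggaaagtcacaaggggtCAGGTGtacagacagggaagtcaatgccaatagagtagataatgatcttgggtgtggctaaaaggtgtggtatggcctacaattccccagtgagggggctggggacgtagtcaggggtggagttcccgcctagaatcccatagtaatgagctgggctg

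The motifs searched were GGGCGG, bound by SP and KLF factors, TGANTCA, the site of AP-1, and CACCTG, the E-box of Snail factors. To these were added AACCGGTT for the Grainyhead-like factors, GGAATG for TEAD, GTAAACA for FOXO and TATAAA for the basal machinery; no match overlapped another. GGGCGG occurred 2 times in the Cldn1 window and 2 times in the Cldn4 window, and 35.7% of the 32851 promoter windows of the RefSeq table hold it. TGANTCA occurred 2 times in the Cldn4 window, and 7.81% of all windows hold it. CACCTG occurred 2 times in the Cldn4 window and 1 time in that of Tjp3, and 20.2% of all windows hold it. The letters AACCGGTT (0.146% of all windows), GGAATG (14.7%), GTAAACA (3.65%) and TATAAA (13.6%) were not in these 3 windows. A match is a description of the letters alone.

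Cldn1 (chromosome 16, 26356646 to 26371839, minus strand) encodes claudin 1, the strand protein on which the water barrier of newborn mouse skin depends. It measured 201, 189 and 197 FPKM in the WT libraries and at 71.8, 76.99 and 79.9 FPKM in the mutant libraries. The values of the groups stood far apart, with no overlap, though the deposited intervals of WT replicates 2 and 3 overlapped that of mutant replicate 3. The means were 196 ± 5.90 and 76.2 ± 4.14 FPKM (SD, n = 3 per group), a log2 fold change of -1.35 (SE 0.0656, limma adjusted p = 8.21e-06). Of the genes tested, 1.44% had a larger decrease.

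Cldn4 (chromosome 5, 134945124 to 134946934, minus strand) encodes claudin 4, which in skin is a claudin of the upper living layers. Its values were 145, 125 and 123 FPKM in WT libraries and 45.6, 47.1 and 50.3 FPKM in mutant libraries. WT replicate 1 was the highest, and the groups lay far apart, at 131 ± 12.2 and 47.7 ± 2.385 FPKM (SD over 3 libraries each). The log2 fold change was -1.43 with an SE of 0.0796 (limma adjusted p = 1.24e-05). The ratio of Cldn4 to Cldn1 within a library is not altered when all its values are multiplied by one factor. It was 0.722, 0.660 and 0.625 in WT and 0.636, 0.612 and 0.629 in mutant libraries. These ratios overlapped, so the claudin pair was lower by a similar factor with the values as deposited. Quantile normalization can alter the ratio, and under it the log2 fold changes were -1.28 for Cldn4 and -1.13 for Cldn1.

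Cldn12 (chromosome 5, 5505015 to 5514976, minus strand) encodes a claudin that lacks the tail motif by which most claudins bind ZO scaffolds. It measured 13.4, 13.7 and 13.05 FPKM in WT libraries and 8.73, 8.96 and 8.79 FPKM in mutant libraries, with little spread inside either group. The log2 fold change was -0.55 (SE 0.0548, limma adjusted p = 0.000184). Rescaling to one total ended this call (-0.25, adjusted p = 0.0972).

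Cldn7 (chromosome 11, 69964779 to 69967886, plus strand), a claudin of many simple and stratified epithelia, was low, at 1.27, 1.10 and 1.105 FPKM in WT and at 1.74, 1.38 and 1.37 FPKM in mutant libraries. The 3 mutant values lay above the 3 WT values, by a log2 difference of 0.21 with a 95% interval of -0.03 to 0.45 (limma adjusted p = 0.137). With libraries brought to one total it passed as higher (0.40, adjusted p = 0.0361). Cldn6 (chromosome 17, 23679365 to 23682446, plus strand), a claudin of embryonic epithelia, was at 0.374, 0.169 and 0.398 FPKM in WT and at 0.704, 0.201 and 0.300 FPKM in mutant libraries. The groups overlapped, and the deposited interval around the value was cut at 0 in 3 of the 6 libraries.

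Mutant replicate 1, which held the highest Cldn6 and Cldn7 values, also held the highest values of Krt8 (6.05 FPKM, against 0.620 to 2.29 FPKM in the other 5 libraries) and Krt18 (6.61, against 0.547 to 1.54 FPKM), keratins of simple epithelia, periderm and Merkel cells. Cldn3, the neighbour of Cldn4 on chromosome 5 and a claudin of simple epithelia, was at 1.16 FPKM there and at 0.0824 to 0.306 FPKM in the other libraries. Krt20, a defining Merkel cell keratin, was at 0 to 0.152 FPKM in all 6. The part of such cells in the claudin values was not tested. Without mutant replicate 1 the log2 fold change was -1.31 for Cldn1, -1.40 for Cldn4 and 0.83 for Tjp3, each past the test. That of Cldn7 was 0.14 without this library (limma adjusted p = 0.378) and 0.21 with it, neither past the test.

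Over all 23 claudin genes of the table, the summed level was 345 ± 17.8 FPKM in WT and 139 ± 5.60 FPKM in the mutant libraries (SD, n = 3 per group). Cldn1 made up 55.0% to 58.3% of that sum in WT and 53.9% to 55.5% in mutant libraries, ranges that overlap. Cldn4 made up 36.4% to 39.7% in WT and 34.0% to 34.9% in mutant libraries. The share of Cldn12 was higher in each mutant library, at 6.09% to 6.55% against 3.675% to 4.13%. Beside these 3 and Cldn7, only Cldn8 had a mean of at least 1 FPKM. Its group means were 0.970 ± 0.0788 FPKM for WT and 1.85 ± 0.133 FPKM for the mutant (SD, n = 3 each), so it reached the minimum through the mutant group alone, and its call as higher is given as a description. The other 18 claudins, Cldn6 among them, did not exceed 1.204 FPKM in any library, and 3 of them were at 0 in every library; the highest value was that of Cldn5, an endothelial claudin, in WT replicate 1.

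**Figure D3:**
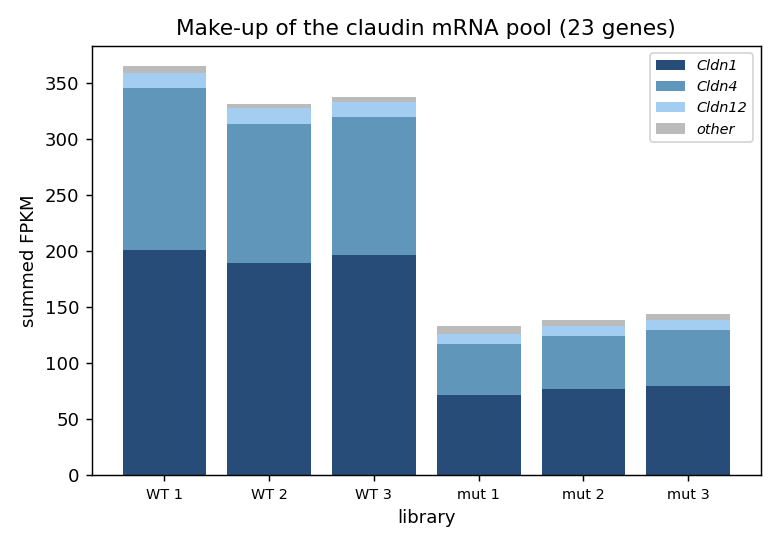
Summed FPKM (y) of the 23 claudin genes in each library (x), divided by gene; no error is drawn because each bar is 1 library. The bars fall from 332 to 365 FPKM in WT to 133 to 144 FPKM in mutant libraries, and Cldn1 takes the largest share of each, 55.0% to 58.3% in WT and 53.9% to 55.5% in mutant libraries.

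Among the other membrane proteins of the junction, F11r (chromosome 1, 171437561 to 171464593, plus strand) was at 67.9, 67.7 and 82.7 FPKM in WT and at 55.2, 57.5 and 59.4 FPKM in mutant libraries. WT replicate 3 was high, and the groups did not overlap. The log2 fold change was -0.33 with an SE of 0.0867 (limma adjusted p = 0.0155). This call had the largest adjusted p of the 5, and it ended under quantile normalization (-0.22, adjusted p = 0.0818), with libraries brought to one total (-0.0065, adjusted p = 0.972) and without mutant replicate 2 (-0.33, adjusted p = 0.0504).

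Ocln (chromosome 13, 100497367 to 100552498, minus strand), which encodes the strand protein occludin, was at 5.003, 4.155 and 3.99 FPKM in WT and at 5.095, 4.86 and 4.66 FPKM in mutant libraries. The groups overlapped, because WT replicate 1 lay within the mutant range. The log2 difference was 0.13 with a 95% interval of -0.07 to 0.33 (limma adjusted p = 0.261). With libraries brought to one total, Ocln passed as higher (0.40, adjusted p = 0.0325).

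Of the scaffold genes in the set, 1 rose and 1 did not pass the test. Tjp1 (chromosome 7, 65296165 to 65371244, minus strand, a part of the annotated gene), which encodes ZO-1, was at 16.04, 16.4 and 16.9 FPKM in WT and at 17.2, 16.6 and 14.0 FPKM in mutant libraries. Mutant replicate 3 was the lowest of all and mutant replicate 1 the highest, so the groups overlapped. The log2 difference was -0.05 with a 95% interval of -0.23 to 0.14 (limma adjusted p = 0.664), and it turned to 0.27 with libraries brought to one total, to 0.0096 with library weights and to 0.0383 without mutant replicate 3, none past the test.

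Tjp3 (chromosome 10, 81268172 to 81291581, minus strand), which encodes ZO-3, a scaffold made mainly in epithelia, was at 2.68, 2.885 and 2.515 FPKM in WT and at 6.30, 5.22 and 5.89 FPKM in mutant libraries. All mutant values were above all WT values. The log2 fold change was 0.88 (SE 0.0858, limma adjusted p = 0.000168), and 1.67% of the genes tested had a larger increase. Exons of Tjp3 overlap those of Apba3 on the other strand, and the deposited locus reaches beyond Tjp3, so reads of Apba3 may be included. Apba3 itself measured 15.95 ± 1.34 and 19.4 ± 1.44 FPKM in the WT and mutant groups (SD, n = 3 per group). It too was called higher (log2 fold change 0.27, limma adjusted p = 0.027), also with libraries brought to one total (0.58) and under quantile normalization (0.27). The part of Apba3 reads in the Tjp3 values was not tested. The deposited interval around the Tjp3 values was wide, at 56.4% to 74.9% of the value to either side, and the intervals of all 6 libraries overlapped.

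The order of the 9 genes by mean FPKM was similar in both groups. In WT libraries it ran Cldn1, Cldn4, F11r, Tjp1, Cldn12, Ocln, Tjp3, Cldn7 and Cldn6, and the ranges of neighbours in that order did not overlap. In mutant libraries F11r (57.4 FPKM) stood above Cldn4 (47.7 FPKM), and Tjp3 (5.80 FPKM) stood above Ocln (4.87 FPKM), again with no overlap between the ranges of neighbours.

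Of 47 further symbols of tight junction genes listed from knowledge of the junction, second names of some genes included, 43 were in the table and 22 were tested. Of these, 5 were higher, 6 lower and 11 not called, near the 23.2% higher and 22.8% lower of all genes tested, with a median log2 fold change of -0.09 against 0.01 for all genes tested. With libraries brought to one total the counts were 9 higher and 1 lower, beside 47.2% and 7.40% of all genes, with a median of 0.22 against 0.30, so the balance of directions over the list turned with the scaling. Without WT replicate 2, or without mutant replicate 2, 4 were higher and 3 lower. The calls over all genes fell too, from 2642 higher and 2592 lower with every library. They were 2077 higher and 1988 lower without WT replicate 2, and 1922 higher and 1957 lower without mutant replicate 2. Cldn8 and Ildr2, both among the 5 higher, reached the minimum only in the mutant group; of the other 20 genes, 3 were higher and 6 lower, and 7 and 1 with libraries brought to one total.

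Among the plaque proteins, which sit under the membrane beside the ZO scaffolds, Magi1 (9.78 to 7.68 FPKM), the ZO-1-binding transcription factor gene Ybx3 (309 to 261 FPKM) and the multi-PDZ scaffold gene Mpdz (15.2 to 13.2 FPKM) fell. Cingulin (Cgn, named because the higher members were few, 1.305 to 1.999 FPKM) and its paralog Cgnl1 (2.14 to 3.21 FPKM) rose. The groups overlapped for Cgn (limma adjusted p = 0.0441), which was low in all libraries, and did not overlap for Cgnl1. The calls of Magi1, Ybx3 and Mpdz ended with libraries brought to one total, and the direction turned for Mpdz (log2 fold change 0.13) and for Ybx3 (0.09), the latter also under quantile normalization (0.14). Inadl, which encodes the polarity scaffold PATJ, was at 8.44 and 8.305 FPKM, and Sympk at 58.8 and 54.9 FPKM, neither past the test.

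Of the other membrane proteins, Cxadr, which encodes an adhesion protein that also serves as a virus receptor, fell to 50.35 ± 3.19 from 86.0 ± 6.705 FPKM (SD over 3 libraries each, limma adjusted p = 0.000222, log2 fold change -0.76), and did so also when libraries were brought to one total (-0.43). Tricellulin (Marveld2), which seals the corners where 3 cells meet, rose from 3.50 to 4.64 FPKM. Ildr2, a member of the angulin family of such corners, was at 0.8115 FPKM in WT, under the minimum, and at 1.95 FPKM in mutant libraries. Lsr, the angulin with the highest level here, was at 46.2 ± 1.37 and 45.4 ± 3.14 FPKM (SD, n = 3 per group; limma adjusted p = 0.782), and Marveld3 did not pass either, at 7.245 and 6.32 FPKM (adjusted p = 0.111).

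Of the polarity genes that act at the junction, 8 were tested, 2 were lower and the other 6 were not called, a share of lower genes near the 22.8% of all genes. Mpp5, which encodes the Crumbs complex scaffold PALS1, fell to 7.73 ± 0.585 from 12.3 ± 0.817 FPKM (SD over 3 libraries each, limma adjusted p = 0.000536, log2 fold change -0.61), and Pard6a fell from 5.25 to 4.09 FPKM. Both calls ended with libraries brought to one total, when 3 other genes of the 8 passed as higher, beside 47.2% of all genes. Pard3 (30.2 and 31.1 FPKM), Pard6b (19.6 and 16.8 FPKM), Pard6g (47.8 and 49.1 FPKM), Prkci (38.65 and 40.5 FPKM) and Crb3 (10.7 and 10.02 FPKM) did not pass the test with the values as deposited.

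Of 10 listed transcription factors known to act on claudin genes, 7 were tested, 4 were higher and 1, Twist1, was lower, beside 23.2% higher and 22.8% lower of all genes tested. With libraries brought to one total 5 were higher and 0 lower, beside 47.2% and 7.40% of all genes. Grhl3, of the Grainyhead-like family that activates claudin and other junction genes in epithelia, was at 6.37, 6.06 and 5.95 FPKM in WT and at 12.7, 12.5 and 12.2 FPKM in mutant libraries (log2 fold change 0.92, limma adjusted p = 2.29e-05). Grhl1 rose from 10.1 to 19.2 FPKM, Grhl2 from 26.6 to 34.6 FPKM and the epithelial ETS factor gene Elf3 from 6.05 to 9.33 FPKM. These 4 calls were also made with libraries brought to one total. The repressor gene Snai2 was at 80.7 ± 4.88 and 78.8 ± 13.8 FPKM (SD, n = 3 per group; limma adjusted p = 0.780). Twist1, a gene of mesenchymal cells, was at 1.54 and 0.615 FPKM, so it reached the minimum through the WT group alone, and its call ended with libraries brought to one total and under quantile normalization.

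**Figure D4:**
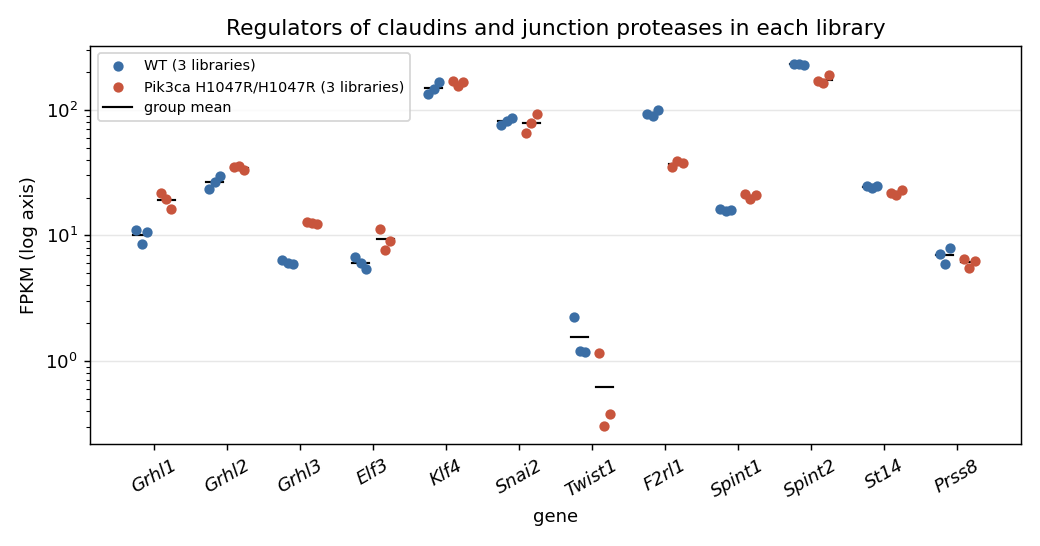
FPKM on a log axis (y) of 7 transcription factor genes and 5 genes of junction proteases, their inhibitors and their receptor (x) in the 3 WT (blue) and 3 mutant libraries (red); black bars are group means. The mutant points of Grhl1, Grhl2, Grhl3, Elf3 and Spint1 lie above the WT points, and those of F2rl1, Spint2, St14 and Twist1 lie below.

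Surface proteases and their inhibitors take part in forming the epidermal tight junction. Of 5 such genes tested, F2rl1, which encodes the protease-activated receptor PAR2, was lower at 37.0 ± 2.03 against 94.3 ± 5.28 FPKM (SD over 3 libraries each; log2 fold change -1.33, limma adjusted p = 9.585e-06). The inhibitor gene Spint2 fell from 230 ± 1.86 to 173.8 ± 13.1 FPKM, a call that ended with libraries brought to one total and under quantile normalization, and its paralog Spint1 rose from 15.9 to 20.6 FPKM. The protease genes St14 (24.3 and 21.99 FPKM, limma adjusted p = 0.0797) and Prss8 (6.95 and 6.09 FPKM) did not pass.

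The adherens junction is a further type of contact between epithelial cells. Of 9 tested genes of it, 5 were lower and 1 higher with the values as deposited (22.8% and 23.2% of all genes), and 1 lower and 3 higher with libraries brought to one total (7.40% and 47.2% of all genes). Vinculin (Vcl) fell from 99.3 to 31.7 FPKM under both scalings. E-cadherin (Cdh1, 348 to 232 FPKM), α-catenin (Ctnna1, 179 to 128 FPKM) and p120 catenin (Ctnnd1, 128 to 88.1 FPKM) fell as deposited, and their calls ended with libraries brought to one total, that of Cdh1 also under quantile normalization.

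By the distance between log2(FPKM + 1) profiles over the 6 libraries, each centred on its WT mean, the 3 tested genes nearest to Cldn4, the called gene of the 9 with the largest decrease, were Pawr (distance 0.0658, log2 fold change -1.45), Zmynd15 (0.0792, -1.41) and Sema3c (0.105, -1.39). Those nearest to Tjp3 were Sphk1 (0.134, 0.91), Slc25a15 (0.137, 0.89) and Gldc (0.177, 0.88). Nearness over 6 libraries in 2 groups reflects mostly a similar difference between the groups.

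Markers of the layers above also differed between the groups. Of 10 spinous layer markers, all tested, 7 were higher and 3 were not called, where 23.2% of all genes were higher. Their summed level was 3853 to 4624 FPKM in WT and 11787 to 14418 FPKM in the mutant libraries, most of it from the keratins Krt1 (1489 and 5730 FPKM) and Krt10 (1704 and 5899 FPKM). The other 8 summed to 1082 to 1259 FPKM and 1306 to 1357 FPKM; among them Dsg1a, a desmosomal cadherin, rose from 32.2 to 75.5 FPKM. Of 8 tested granular markers, the layer that holds the sealing junctions, 2 were higher (Tgm3 and Casp14) and 3 lower (Lor, Cdsn and Tgm1), with sums of 81.4 to 139 FPKM and 72.1 to 100.1 FPKM, and with libraries brought to one total 3 were higher and 2 lower. Of 10 basal markers, 1 was higher and 6 lower as deposited (23.2% and 22.8% of all genes), and 3 were higher and 3 lower with libraries brought to one total (47.2% and 7.40%). Itgb4 fell from 157 to 92.7 FPKM and Krt15 rose from 2546 to 3586 FPKM, both also with libraries brought to one total. Itga6 was called lower as deposited (limma adjusted p = 0.00146), a call that ended with that scaling and under quantile normalization. Krt5, Krt14 and Trp63 (198 and 206 FPKM) did not pass as deposited. The part of a shift between layers in the tight junction values was not tested.

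The levels of markers of other cell types are given beside these; of all genes tested, 22.8% were lower and 23.2% higher. The 8 endothelial markers summed to 1.70 to 3.61 FPKM in WT and 1.003 to 2.09 FPKM in the mutant libraries, all under the minimum for the test. Those of fibroblasts (8 genes) summed to 397 to 547 FPKM and 319 to 360.0 FPKM, most of it from Dcn (means 272 and 215 FPKM). Of the 7 tested, 2 were lower, Vim and Dcn. Those of melanocytes (7 genes) summed to 16.2 to 22.15 FPKM and 11.4 to 15.5 FPKM with 2 of 3 lower, and those of immune cells (8 genes) to 7.62 to 8.197 FPKM and 4.999 to 5.915 FPKM with 3 of 3 lower, of which C1qc reached the minimum through the WT group alone. Each of these calls ended with libraries brought to one total, and Dcn turned to 0.02 under quantile normalization. The Langerhans cell gene Cd207 was at 0 in every library. Of the 7 periderm and simple epithelium markers, 3 were tested, and the sums were 17.2 to 19.8 FPKM and 11.9 to 30.5 FPKM. Krt7 was lower, a call that ended with libraries brought to one total, and Krt8, called higher, reached the minimum only in the mutant group (0.937 and 3.34 FPKM), where replicate 1 was the highest. Among 6 hair germ genes, Shh, Lhx2, Lef1 and Wnt10b were higher and Sox9 lower, with sums of 170.2 to 187.5 FPKM and 178 to 191 FPKM. The part of these cells in the tight junction values was not tested.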

How the data were processed

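Per the file headers, the authors deposited FPKM values of every gene in each library and an interval around each. The submitters' processing notes name TopHat and Cufflinks; no source used here gives their versions or the handling of strand. The notes name build mm9, but the loci of all 9 genes overlap the genes of those names in GENCODE M21 (GRCm38); 1 was added to each start. All 54 values of the 9 genes have the status OK. Libraries were grouped by title.

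Genes whose mean reached 1 FPKM were tested with limma 3.58.1 in R 4.3.3 on log2(FPKM + 1), a scale that understates changes of low genes, with a trended variance prior and Benjamini-Hochberg adjustment over 11385 genes. The procedure was tested on simulated data with few changed genes and no scaling difference between libraries. That test therefore does not bear on the choice of scaling. Exact permutation tests of 3 against 3 cannot go below 0.1. They gave 0.1 for Cldn1, Cldn4, Cldn7, Cldn12, Tjp3 and F11r, 0.3 for Ocln, 0.8 for Cldn6 and 0.9 for Tjp1 (two-sided).

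The 9 genes and the 16 lists were chosen with earlier results of these data known. From each list, up to 4 called genes by smallest p were named, all tight junction genes at a mean of at least 5 FPKM, and the 3 nearest profiles; other genes were named after their values were seen. All 9 genes matched the RefSeq promoter table. One further gene is not reported here and was left out of the list counts. The 15 alternatives covered pseudocount, filter, scaling, variance prior, weights, block and leaving out each library.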

Additional observations from a re-analysis of the deposited data

How the results depend on the processing

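The calls of Cldn1, Cldn4 and Tjp3 were made under all 15 alternatives, with log2 fold changes between -1.38 and -1.02, between -1.48 and -1.11, and between 0.78 and 1.14. The total number of called genes lay between 3798 and 7088. Bringing all libraries to one FPKM total gave 5375 higher and 842 lower of all genes, 3 higher and 2 lower of the 9 genes, and 9 higher and 1 lower of the further tight junction genes; it ended the calls of Cldn12 and F11r, turned Tjp1 to 0.27 and added Ocln and Cldn7. Tjp1 was also at 0.0096 with library weights, and between -0.0986 and 0.0383 when a library was left out, above 0 only without mutant replicate 3. Leaving out each library gave 3 to 4 lower and 1 higher of the 9 genes. Of the further tight junction genes it gave 3 to 4 lower and 4 to 5 higher, 7 to 9 in all. There, 3 lower were left without WT replicate 2 and without mutant replicate 2. Over all genes, leaving out a library gave 1957 to 2610 lower and 1922 to 2597 higher, 3879 to 5108 in all, against 5234 with every library. Without a filter, Cldn6 was at 0.08 (limma adjusted p = 0.713). Whether the replicate numbers pair the samples could not be settled with 3 libraries per group. Deviations from the group means correlated at 0.127, 0.122 and -0.00735 for numbers 1, 2 and 3, and at -0.157 to 0.0619 between unlike numbers. Mutant replicates 1 and 2 correlated best with their own number, and mutant replicate 3 did not. With the replicate number as a block, 3798 genes were called, 1889 of them higher, and 4 lower and 1 higher of the 9 genes. Wide deposited intervals limit Cldn6, Cldn7 and Tjp3. The deposited intervals of all 6 libraries also overlapped for Cldn12 and F11r, both called lower, and for Tjp1 and Ocln. For Cldn1, the intervals of WT replicate 2 (104.6 to 273.8 FPKM) and WT replicate 3 (107.8 to 286.0 FPKM) overlapped that of mutant replicate 3 (50.86 to 109.0 FPKM). The lower bound of WT replicate 1 for Cldn1 was also 109.0 FPKM. For Cldn4, the lowest WT bound was 80.17 FPKM and the highest mutant bound 66.28 FPKM.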
